A study of Mus musculus with 8 samples.

Results

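Genes of the Notch pathway were chosen by gene name from the table of counts. They were the receptors *Notch1* and *Notch2*, the ligands *Jag1* and *Jag2* and the receptor-modifying enzyme *Lfng*. With them were the target genes *Hes1*, *Hes5*, *Hey1* and *Nrarp* and the HES family member *Hes6*. All 10 were among the 17167 listed genes and all 10 had enough counts to be tested. The samples were cultured undifferentiated spermatogonia (Aundiff), the germ cell population that includes spermatogonial stem cells, grown from the testes of adult wild-type mice. One group received AGX51, a small molecule that inhibits the ID proteins, for 20 h, and the other received DMSO as vehicle. Each of 4 cultures, derived from individual mice, gave 1 AGX51 library and 1 vehicle library. Libraries with the same number share a letter in their labels and were taken to come from the same culture. The series' design text gives the dose of AGX51 as 80 µM. The sample labels state the same number in mM, and they name the strain as CBA/J where the study's supplemental procedures name C57BL/6J. Both groups share their history, since all cultures had been expanded in GDNF, bFGF and EGF over inactivated fibroblast feeders, then partly freed of feeders on plastic and replated on a basement membrane gel. They are mixed cell samples, in which fewer cells of a type and less RNA per cell cannot be told apart.

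Notch receptors are single-pass membrane proteins that are activated by Jagged and Delta-like ligands on a neighbouring cell. Binding exposes the receptor to the protease ADAM10 and then to γ-secretase, and the released intracellular domain joins the DNA-binding protein RBPJ and Mastermind coactivators to switch on target genes, chiefly the HES and HEY repressors. These repressors are basic helix-loop-helix (bHLH) proteins, the same structural family as the E proteins that ID proteins bind and hold off DNA. In the mouse testis, JAG1 on undifferentiated spermatogonia is known to activate Notch in the neighbouring Sertoli cells, where HES1 and HEY1 repress the gene for the niche factor GDNF.

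Libraries held 4303318 to 8441399 counts with AGX51 and 8330176 to 9586105 with vehicle (exact permutation test, two-sided, p = 0.0571, where 4 libraries against 4 allow no value below 0.0286). Within each culture the total was lower with AGX51, with differences of -4027000 to -1145000 counts (exact sign-flip test over 4 pairs, two-sided, p = 0.125, the smallest possible). Levels are given as CPM, the count of a gene scaled to the library's total over the listed genes. The groups were compared with edgeR's quasi-likelihood test over 14428 genes, and a gene was called when its Benjamini-Hochberg adjusted p was under 0.05 and its fold change was above 1.5. By this rule 9.93% of all tested genes were called lower and 8.57% higher with AGX51. Of the calls, 46.3% were higher, against 35.2% when libraries were scaled by their totals alone. Markers of spermatogonia were present, with *Zbtb16*, *Sall4*, *Ret*, *Ddx4* and *Dazl* detected in every library. Their summed level was 1134 to 1467 CPM with AGX51 and 1913 to 2270 CPM with vehicle, lower in 4 of 4 cultures. Of 13 tested spermatogonia markers, 4 were called lower (*Gfra1*, *Etv5*, *Dazl* and *Cdh1*) and 9 were not called, and most of the difference between the sums lay in *Dazl*, at a mean of 338.9 CPM with AGX51 and 833.1 CPM with vehicle. Fibroblast markers, which mark the feeder cell type, summed to 5875 to 10370 CPM with AGX51 and 4333 to 6926 CPM with vehicle, higher in 4 of 4 cultures. Of 20 tested fibroblast markers, 8 were called higher and 2 lower, and their mean log2 CPM was 6.59 ± 0.39 with AGX51 and 6.22 ± 0.29 with vehicle (SD, n = 4 each, exact permutation test, two-sided, p = 0.20). That test ignores the pairing by culture. Within cultures this mean was higher with AGX51 by 0.28 to 0.53 (exact sign-flip test over 4 pairs, two-sided, p = 0.125, the smallest p that 4 pairs allow). Endothelial cells, which use Notch heavily, had 5 of 8 markers in the table, with a summed level of 5.51 to 7.44 CPM with AGX51 and 9.80 to 15.3 CPM with vehicle. Of 3 tested endothelial markers 1 was called lower, *Kdr*, at a mean of 0.98 CPM with AGX51 and 5.88 CPM with vehicle, which holds most of the difference between the sums, and *Pecam1* and *Emcn* were not called. Sertoli cells had 3 of 8 markers in the table, at 31.1 to 48.4 CPM summed with AGX51 and 36.6 to 43.4 CPM with vehicle. Most of that sum was *Sox9*, at a mean of 27.2 CPM with AGX51 and 29.9 CPM with vehicle. Of 3 tested Sertoli markers 1 was called higher, *Clu*, at a mean of 9.83 CPM with AGX51 and 5.59 CPM with vehicle. *Sox9* and *Wt1* were not called. No marker in the table was at 0 in every library. The part of these other cells in each Notch gene's level was not tested. Fits with the mean fibroblast marker level as a covariate are given where they alter a call. That mean was itself higher with AGX51 in 4 of 4 cultures, so such fits cannot separate feeder content from the treatment.

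The Notch target genes *Hes1*, *Hes5* and *Nrarp*, the fringe enzyme *Lfng* and the receptor *Notch1* fell with AGX51. These were 5 of the 10 genes, against the 9.93% of all tested genes called lower. The 10 were chosen with earlier results of these data known, so the contrast is a description and not a test. None of the 10 was called higher by the edgeR fit without pairing by culture. In 5 of 20 alternative settings, culture as a block among them, *Hey1* was called higher. At an unadjusted p under 0.05, 1 of the 10 was higher and 7 were lower in the unpaired edgeR fit. DESeq2 and limma-voom called 0 higher. Both of these tools called 6 lower. Over all tested genes, DESeq2 called 1376 of 14423 lower and 1293 higher, and limma-voom called 1429 of 14428 lower and 1210 higher. The median log2 fold change of the 10 genes was -0.68, beside 0.00 over all tested genes. Within cultures, 8 of the 10 were lower with AGX51 in 4 of 4 cultures, as were 30.6% of all tested genes, and the exceptions were *Notch2* and *Hey1*. In 5 genes every AGX51 value lay below every vehicle value, as in 17.9% of all tested genes, and in none did every AGX51 value lie above, as in 10.6% of all tested genes.

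**Figure D1:**
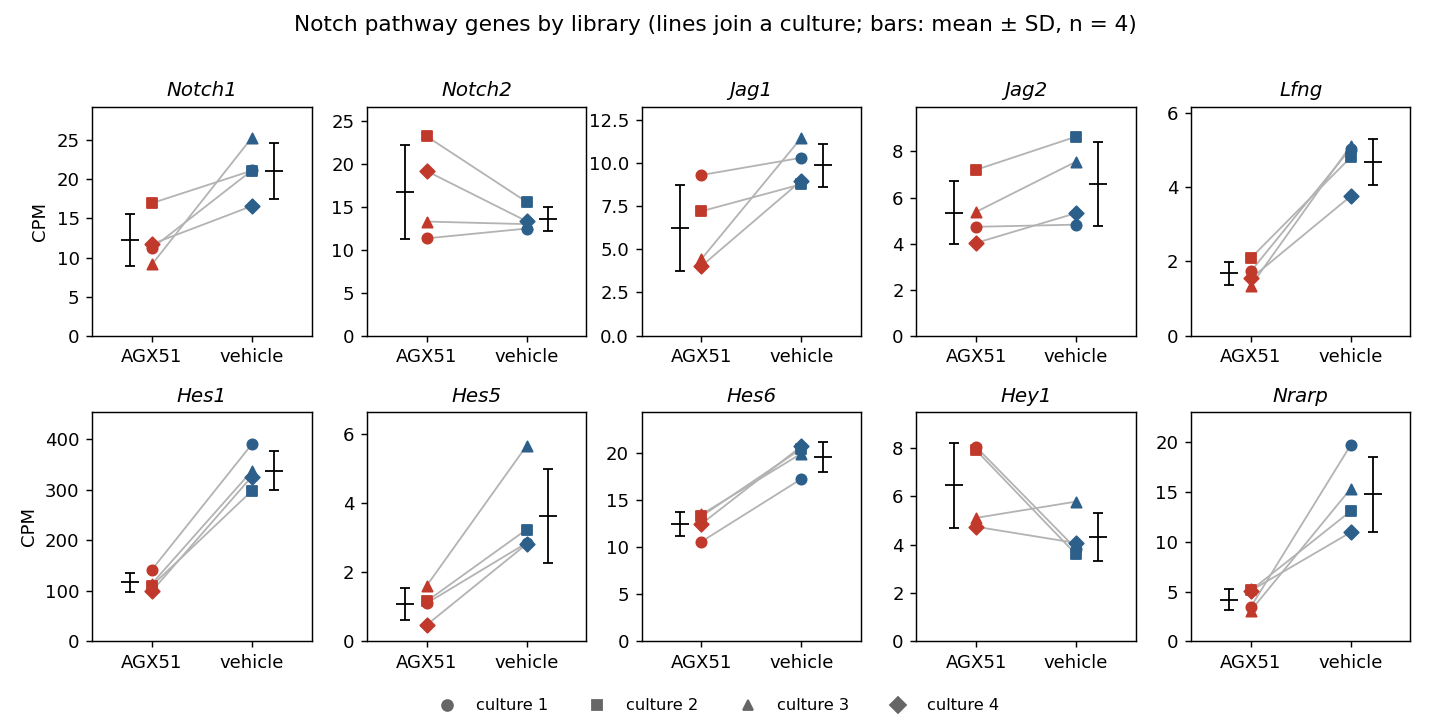
CPM (vertical axis, linear, from 0) of the 10 Notch pathway genes in each AGX51 and vehicle library, with grey lines joining the libraries of a culture and bars giving the mean ± SD (n = 4). *Hes1*, *Hes5*, *Hes6*, *Lfng* and *Nrarp* show no overlap between the groups, and *Notch2* and *Hey1* are the 2 genes whose AGX51 mean is above the vehicle mean.

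The sequences just upstream of *Hes5*, *Lfng* and *Nrarp* are shown because these are the called genes whose matched promoters hold either motif marked here in capitals. RefSeq promoters on GRCm38.p6, from 250 bases before to 50 bases after the start, were matched by symbol for 8 of the 10 genes (9 promoters, since *Hes6* has 2), with *Hes1* and *Hey1* not matched. Each line runs 5′ to 3′ along the gene's strand from position -250 to position -1, the last base before the RefSeq start. The gene coordinates given further below are from another annotation, GENCODE, and their starts can differ. By those coordinates the whole *Notch1* and *Jag2* promoters and a *Hes6* promoter lie inside their genes. The end of the *Lfng* window also lies inside the gene, as do part of the bases before the start in *Jag1* and *Notch2*. Motifs present or absent in these promoters therefore do not describe only sequence upstream of the gene. Capitals mark TGGGAA, the core of the sequence that RBPJ binds, or CACGTG, an E-box of the kind that bHLH proteins bind, each read on both strands (TTCCCA is TGGGAA on the opposite strand). The windows are chr4:154960673-154960922 for *Hes5*, chr5:140607091-140607340 for *Lfng* and chr2:25180508-25180757 for *Nrarp*, all on the plus strand.
Hes5: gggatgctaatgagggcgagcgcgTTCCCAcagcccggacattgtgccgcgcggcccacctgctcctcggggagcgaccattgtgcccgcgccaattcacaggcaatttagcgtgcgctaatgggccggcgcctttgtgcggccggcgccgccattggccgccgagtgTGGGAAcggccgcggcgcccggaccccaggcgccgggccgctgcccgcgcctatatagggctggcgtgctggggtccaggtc
Lfng: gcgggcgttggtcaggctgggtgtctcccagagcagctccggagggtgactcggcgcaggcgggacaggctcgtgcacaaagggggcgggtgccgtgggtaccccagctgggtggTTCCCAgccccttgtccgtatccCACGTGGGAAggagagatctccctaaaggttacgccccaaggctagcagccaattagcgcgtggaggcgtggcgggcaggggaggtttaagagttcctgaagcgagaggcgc
Nrarp: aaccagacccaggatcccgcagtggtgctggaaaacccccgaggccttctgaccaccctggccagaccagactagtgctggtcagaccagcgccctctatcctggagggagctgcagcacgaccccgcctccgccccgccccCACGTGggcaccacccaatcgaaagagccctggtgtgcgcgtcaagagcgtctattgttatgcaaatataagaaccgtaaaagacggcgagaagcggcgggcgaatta

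The *Hes5* promoter held TGGGAA at -82 on the gene's strand and at -226 on the opposite strand. The *Lfng* promoter held it at -108 and, on the opposite strand, at -135, and its match at -108 overlaps a CACGTG at -112. *Nrarp* held CACGTG at -108 and no TGGGAA. None of the other matched genes held either motif in this window, *Notch1* included. Over all 32851 promoters of this length, 25.56% held TGGGAA and 7.15% held CACGTG, beside 2 of these 9 promoters for each motif, so that TGGGAA was about as frequent here as in promoters at large. The looser E-box CANNTG, which takes in CACGTG, was in 72.31% of all promoters and in those of *Hes5*, *Hes6*, *Jag1*, *Lfng* and *Nrarp*. The N-box-like CACNAG was in 42.48% of all promoters and in those of *Hes6*, *Lfng*, *Notch1*, *Notch2* and *Nrarp*. A match describes the letters only, and no binding was measured.

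Neither Jagged ligand was called. *Jag1* (chromosome 2, 137081456 to 137116644, minus strand, GRCm38 as in all coordinates from here on), the ligand that spermatogonia present to Sertoli cells, was at 9.30, 7.20, 4.44 and 4.03 CPM with AGX51 in cultures 1 to 4, against 10.3, 8.76, 11.4 and 8.97 CPM with vehicle. Cultures 1 and 2 held 90.3% and 82.2% of their vehicle level, whereas cultures 3 and 4 held 38.7% and 44.9%, so the groups overlapped through culture 1. The log2 fold change was -0.62 (SE 0.23, edgeR adjusted p = 0.0583). With culture as a block it was -0.65 and called lower (adjusted p = 0.0110 from edgeR), in a fit that called 11.3% of all tested genes lower, and it was also called without AGX51 replicate 1 (-0.86). With the fibroblast covariate it was -0.38 (edgeR adjusted p = 0.218). *Jag2* (chromosome 12, 112907819 to 112929776, minus strand), the second Jagged ligand, ranged from 4.03 to 7.20 CPM with AGX51 and from 4.82 to 8.64 CPM with vehicle. Its log2 fold change was -0.25 (SE 0.24, edgeR adjusted p = 0.454), and AGX51 libraries held 71.1% to 98.1% of the vehicle level of their culture.

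None of the other tested ligand genes was called. *Dll3*, a Delta-like protein known for blocking Notch in its own cell, was at 0.93 to 2.15 CPM with AGX51 and 2.09 to 5.22 CPM with vehicle. Its log2 fold change was -0.88 (edgeR adjusted p = 0.0846), and with culture as a block it was called lower at the same fold change (adjusted p = 0.0239 from edgeR). The non-canonical ligands *Dlk1* and *Dlk2* stood at 0.33 and -0.25 on the log2 scale, neither past the threshold. *Dll1* and *Dll4* were not analysed here. Ligands must be tagged with ubiquitin and taken up by the sending cell to activate Notch. Of 4 tested ligases for this step 1 was called, where 18.5% of all tested genes were called in either direction. *Neurl1b* fell to 2.69 ± 0.89 CPM with AGX51, against 5.44 ± 0.50 CPM with vehicle (SD, n = 4 each), with no overlap, a log2 fold change of -0.99 (edgeR adjusted p = 0.00714). It lost the call at equal depth (-0.98, edgeR adjusted p = 0.0886), which left 0 of the 4 ligases called. The other ligases were not called, with *Mib1* at 0.03, *Mib2* at 0.58 and *Neurl1a* at -0.09. The sign of *Mib1* turned with upper quartile or total scaling.

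Of the receptors, *Notch1* was called lower and *Notch2* was not called, and the difference between their fold changes was not tested. *Notch1* (chromosome 2, 26457903 to 26516663, minus strand) was at 11.2, 17.0, 9.14 and 11.7 CPM with AGX51 in cultures 1 to 4, against 21.1, 21.1, 25.3 and 16.6 CPM with vehicle. It was lower with AGX51 in each culture, from 36.1% of the vehicle level in culture 3 to 80.3% in culture 2. The groups overlapped only because AGX51 in culture 2 stood just above vehicle in culture 4. *Notch1* was called lower at a log2 fold change of -0.73 (SE 0.17, edgeR adjusted p = 0.00688), and in 20 of 20 alternative settings. Exons of *0610009E02Rik* and *Gm13568* overlap *Notch1* on the opposite strand, and the sources used here do not give the strand setting of the counting.

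*Notch2* (chromosome 3, 98013527 to 98150361, plus strand) was at 11.3, 23.2, 13.3 and 19.2 CPM with AGX51, against 12.5, 15.6, 13.0 and 13.4 CPM with vehicle. Cultures 2 and 4 stood at 148.9% and 143.7% of their vehicle level and cultures 1 and 3 at 90.8% and 102.3%. At a log2 fold change of 0.36 (SE 0.20, edgeR adjusted p = 0.185) it was not called, nor in any of 20 alternatives. *Gm42820* has exons that overlap *Notch2* on the same strand. Of the remaining receptors, *Notch3* was at 0.16 on the log2 scale (edgeR adjusted p = 0.842), with a sign that turned in 5 alternatives. *Notch4* had 19 counts over the 4 AGX51 libraries and 37 over the 4 vehicle libraries, too few to pass the filter, a depth-scaled ratio of 0.698 (95% interval 0.379 to 1.25, counting error only).

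Because both receptors were counted in the same libraries, their ratio does not depend on how libraries were scaled. The log2 ratio of *Notch2* to *Notch1* counts was 0.02 to 0.71 with AGX51 and -0.96 to -0.31 with vehicle. It was higher with AGX51 in 4 of 4 cultures, by 1.04 on average, and the groups did not overlap. The counts are not corrected for transcript length, so the ratio shows a shift between groups and not which receptor is the more abundant. For the ligands, the log2 ratio of *Jag2* to *Jag1* was -0.96 to 0.27 with AGX51 and -1.09 to -0.02 with vehicle, and these ranges overlapped.

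**Figure D2:**
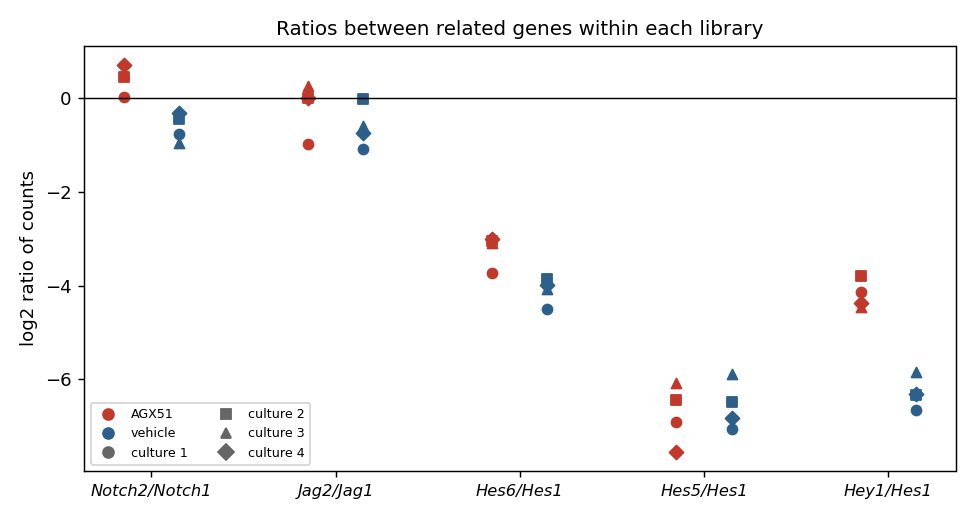
Log2 ratio of counts (vertical axis, 0.5 added to each count) between related Notch pathway genes within each library, red for AGX51 and blue for vehicle, with a marker shape for each culture. The *Notch2*/*Notch1*, *Hes6*/*Hes1* and *Hey1*/*Hes1* ratios of the AGX51 libraries all lie above those of the vehicle libraries, while the *Jag2*/*Jag1* and *Hes5*/*Hes1* ratios overlap.

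Sugars on the Notch extracellular domain set which ligands it answers to. *Lfng* (chromosome 5, 140607320 to 140615545, plus strand), lunatic fringe, extends O-fucose on Notch and favours Delta-like over Jagged ligands, and is itself a Notch target in the segmenting mouse embryo. It was at 1.73, 2.09, 1.34 and 1.54 CPM with AGX51, against 5.04, 4.80, 5.11 and 3.75 CPM with vehicle. The AGX51 libraries held 26.3% to 43.5% of the vehicle level of their culture and the groups did not overlap, although the counts were small, at 9 to 13 with AGX51 and 36 to 46 with vehicle. The log2 fold change was -1.42 (SE 0.25, edgeR adjusted p = 0.00101).

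Of 8 other tested glycosylation genes 1 was called, where 18.5% of all tested genes were called in either direction. *Gxylt2*, which adds xylose to O-glucose on Notch, fell to 11.8 ± 1.42 CPM with AGX51, against 29.3 ± 3.38 CPM with vehicle (SD, n = 4 each), with no overlap, a log2 fold change of -1.25 (SE 0.14, edgeR adjusted p = 7.6e-05). Its paralog *Gxylt1* was at -0.28 and the O-glucosyltransferase *Poglut1* at -0.29, neither called. Manic fringe, *Mfng*, was at -0.88 with 0.54 to 1.30 CPM with AGX51 and 1.10 to 2.40 CPM with vehicle (edgeR adjusted p = 0.118).

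Of 10 tested genes of receptor cleavage, 2 were called higher and 1 lower, where 8.57% and 9.93% of all tested genes were called higher and lower. *Adam10*, the protease that makes the first ligand-induced cut, was at 28.5, 24.4, 26.1 and 32.9 CPM with AGX51, against 50.9, 55.8, 48.3 and 49.3 CPM with vehicle. Every AGX51 library was below every vehicle library, with a log2 fold change of -0.78 (edgeR adjusted p = 0.000691). Of the γ-secretase subunits, *Aph1c* and *Aph1b* were called higher, at 1.60 (edgeR adjusted p = 0.000292) and 0.82 (0.00270). These are near-identical neighbouring copies, so how reads were divided between them is uncertain. The subunit *Psenen* passed the p threshold but not the fold threshold, at 0.55 (edgeR adjusted p = 0.000472).

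Of 23 tested genes of the nuclear activation complex and the corepressors, 2 were called, where 18.5% of all tested genes were called in either direction. *Rbpj*, the DNA-binding partner of the Notch intracellular domain, averaged 61.5 ± 6.86 CPM with AGX51 and 48.5 ± 3.65 CPM with vehicle (SD, n = 4 each), with no overlap. Its log2 fold change of 0.43 passed the p threshold (edgeR adjusted p = 0.0150) and missed the fold threshold. Of 10 tested genes of the activation complex 1 was called, *Rbpjl*, a paralog of *Rbpj* known from the pancreas, at 0.69 (edgeR adjusted p = 0.0269). It lost the call in 6 alternatives, and its exons overlap *Matn4* on the opposite strand. The Mastermind coactivator *Maml3* was at -0.39 and the coactivator *Snw1* at 0.28, neither called. Of 13 tested corepressors 1 was called, *Sap30*, a subunit of the SIN3 histone deacetylase complex, which rose to 16.4 ± 2.70 CPM with AGX51, against 7.40 ± 1.24 CPM with vehicle (SD, n = 4 each). Its log2 fold change was 1.22 (edgeR adjusted p = 0.000223). The corepressors *Cir1*, *Tle1* and *Tle3*, of which the last 2 are Groucho-family proteins that HES repressors recruit, were at 0.41, 0.31 and 0.29 and not called.

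Among 13 tested genes of Notch trafficking and turnover 1 was called in each direction, where 8.57% of all tested genes were called higher and 9.93% lower. *Dtx3l*, a ubiquitin ligase of the Deltex family, was at -1.26 on the log2 scale (edgeR adjusted p = 0.00181), with exons that overlap its partner gene *Parp9* on the opposite strand. *Numb*, an endocytic adaptor that restrains Notch, averaged 26.7 ± 8.56 CPM with AGX51 and 18.1 ± 2.01 CPM with vehicle (SD, n = 4 each). Its log2 fold change was 0.64 (edgeR adjusted p = 0.0325), the groups overlapped, and the call was lost in 6 alternatives, 5 of them with 1 library left out. *Fbxw7*, which marks the Notch intracellular domain for degradation, was at -0.38 and *Ccnc*, the cyclin partner of CDK8, at -0.33, both under the fold threshold.

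*Nrarp* (chromosome 2, 25180758 to 25183339, plus strand) encodes a small ankyrin-repeat protein that Notch induces and that destabilises the Notch intracellular domain in turn, and it had the lowest log2 fold change of the 10 genes. It was at 3.47, 5.11, 3.09 and 5.09 CPM with AGX51 in cultures 1 to 4, against 19.7, 13.1, 15.3 and 10.95 CPM with vehicle. All AGX51 libraries lay below all vehicle libraries, at 17.6% and 20.1% of the vehicle level in cultures 1 and 3 and 39.1% and 46.5% in cultures 2 and 4. edgeR gave a log2 fold change of -1.75 (SE 0.24, Benjamini-Hochberg adjusted p = 0.000198). *Gm38287* overlaps its exons on the opposite strand.

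*Hes1* (chromosome 16, 30064384 to 30067796, plus strand), the best-known Notch target and a repressor that also represses its own gene, fell in every culture by a similar factor. It was at 142.2, 110.4, 114.4 and 99.6 CPM with AGX51, against 390.3, 298.0, 337.3 and 326.4 CPM with vehicle. These are 36.4%, 37.1%, 33.9% and 30.5% of the vehicle level, the narrowest spread among the 5 called genes of the 10, and the groups did not overlap. The libraries together held 3069 *Hes1* counts with AGX51 and 12208 with vehicle. The log2 fold change was -1.47 (SE 0.13, edgeR adjusted p = 9.99e-06).

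*Hes5* (chromosome 4, 154960923 to 154962371, plus strand), a Notch target best known from neural progenitors, was at 1.10, 1.16, 1.61 and 0.47 CPM with AGX51, against 2.85, 3.24, 5.67 and 2.82 CPM with vehicle. The groups did not overlap, and each AGX51 library held 16.8% to 38.7% of the vehicle level of its culture. The values rest on 28 counts with AGX51 and 131 with vehicle, so single libraries are imprecise. *Hes5* was called lower at a log2 fold change of -1.67 (SE 0.38, edgeR adjusted p = 0.00532). Without vehicle replicate 3, which stood above the other vehicle libraries, it remained called lower. *Gm20421* overlaps its exons on the opposite strand.

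*Hes6* (chromosome 1, 91411483 to 91414038, minus strand), a divergent family member that counteracts HES1, was at 10.6, 13.2, 13.4 and 12.4 CPM with AGX51, against 17.2, 20.4, 19.9 and 20.7 CPM with vehicle. The groups were clear of each other, with AGX51 libraries at 60.2% to 67.6% of the vehicle level. The log2 fold change of -0.57 (SE 0.14) passed the p threshold (edgeR adjusted p = 0.00975), as 15.3% of all tested genes did in the lower direction, and was just short of the 1.5-fold threshold. It was past both in 7 of 20 alternatives, among them total scaling (-0.65) and the fibroblast covariate (-0.68).

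*Hey1* (chromosome 3, 8663359 to 8667256, minus strand), a Notch target of the related HEY group, was not called. It was at 8.04, 7.90, 5.11 and 4.74 CPM with AGX51, against 3.83, 3.60, 5.78 and 4.07 CPM with vehicle. Cultures 1 and 2 stood at 209.6% and 219.4% of their vehicle level, culture 4 at 116.5% and culture 3 at 88.4%, so the groups overlapped. The log2 fold change was 0.62 (SE 0.23, edgeR adjusted p = 0.0574). With culture as a block it was 0.61 and called higher (adjusted p = 0.0349 from edgeR), in a fit that called 9.66% of all tested genes higher, and with the fibroblast covariate it was 0.76 (adjusted p = 0.0351 from edgeR).

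Within libraries, the log2 ratio of *Hey1* to *Hes1* counts was -4.47 to -3.79 with AGX51 and -6.65 to -5.85 with vehicle, higher with AGX51 by 2.10 on average with no overlap. The ratio of *Hes6* to *Hes1* was also higher, at -3.74 to -3.00 with AGX51 and -4.50 to -3.86 with vehicle, although *Hes6* itself was lower. Both ratios take in the fall of *Hes1*, whose log2 fold change was -1.47, beside 0.62 for *Hey1* and -0.57 for *Hes6*. The ratio of *Hes5* to *Hes1* overlapped, at -7.55 to -6.09 with AGX51 and -7.07 to -5.88 with vehicle.

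None of the other tested members of the HES and HEY family was called. *Hes7*, the repressor of the segmentation clock, was at -0.22 and *Hey2* at 0.49 on the log2 scale, neither called. *Heyl*, a further HEY gene and a Notch target in mouse smooth muscle, did not pass the count filter. It had 1, 0, 0 and 1 counts in the AGX51 libraries, against 11, 6, 11 and 7 in the vehicle libraries. The depth-scaled ratio of the sums was 0.0776 (95% interval 0.00905 to 0.302, counting error only), and without the count filter edgeR gave an adjusted p of 0.00386 and called it lower. *Hes2*, *Hes3* and *Helt* were not analysed here.

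**Figure D3:**
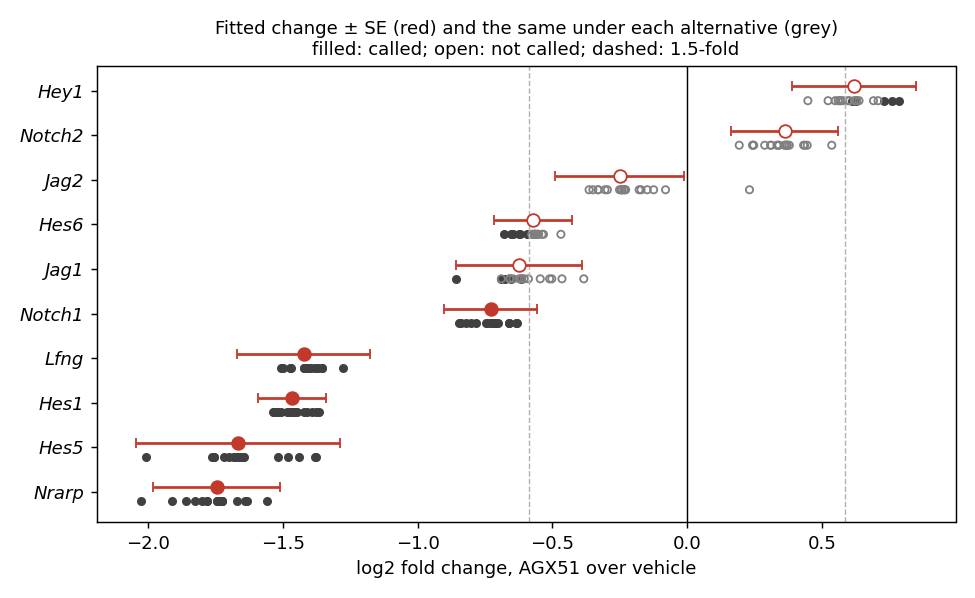
Log2 fold change of AGX51 over vehicle (horizontal axis) for the 10 Notch pathway genes, with the edgeR estimate ± SE in red and the estimates under the alternative settings in grey, filled where the gene was called. The estimates of *Nrarp*, *Hes5*, *Hes1*, *Lfng* and *Notch1* are filled under every alternative that tested them, while those of *Hes6*, *Jag1* and *Hey1* fall on both sides of the rule.

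The calls of *Hes1*, *Nrarp*, *Lfng* and *Notch1* held in 20 of 20 alternative settings and that of *Hes5* in 19 of 19, since it was not tested at a minimum count of 30. Over these settings the log2 fold change ran from -1.53 to -1.37 for *Hes1*, from -2.03 to -1.56 for *Nrarp*, from -1.51 to -1.28 for *Lfng* and from -2.01 to -1.38 for *Hes5*. That of *Notch1* ran from -0.85 to -0.63. With the fibroblast marker mean in the model, all 5 were still called lower. Since that mean differed with treatment in each culture, this fit does not test the part of the feeder cells.

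Beyond the 10 genes, calls in the pathway were few and went in both directions. Of 64 other tested pathway genes, 5 were called higher and 4 lower, against 8.57% and 9.93% of all tested genes, and 55 were not called. Their median log2 fold change was 0.01. The 4 that were lower were *Gxylt2*, *Dtx3l*, *Neurl1b* and *Adam10*, and the 5 that were higher were *Aph1c*, *Aph1b*, *Sap30*, *Rbpjl* and *Numb*. None of the tested receptor, ligand, HES or HEY genes outside the 10 was called by edgeR without pairing by culture, DESeq2 or limma-voom. Of them 1, *Dll3*, was lower at an unadjusted p under 0.05 and was called lower by edgeR with culture as a block. *Heyl*, which the count filter removed, was called lower by edgeR without that filter.

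**Figure D4:**
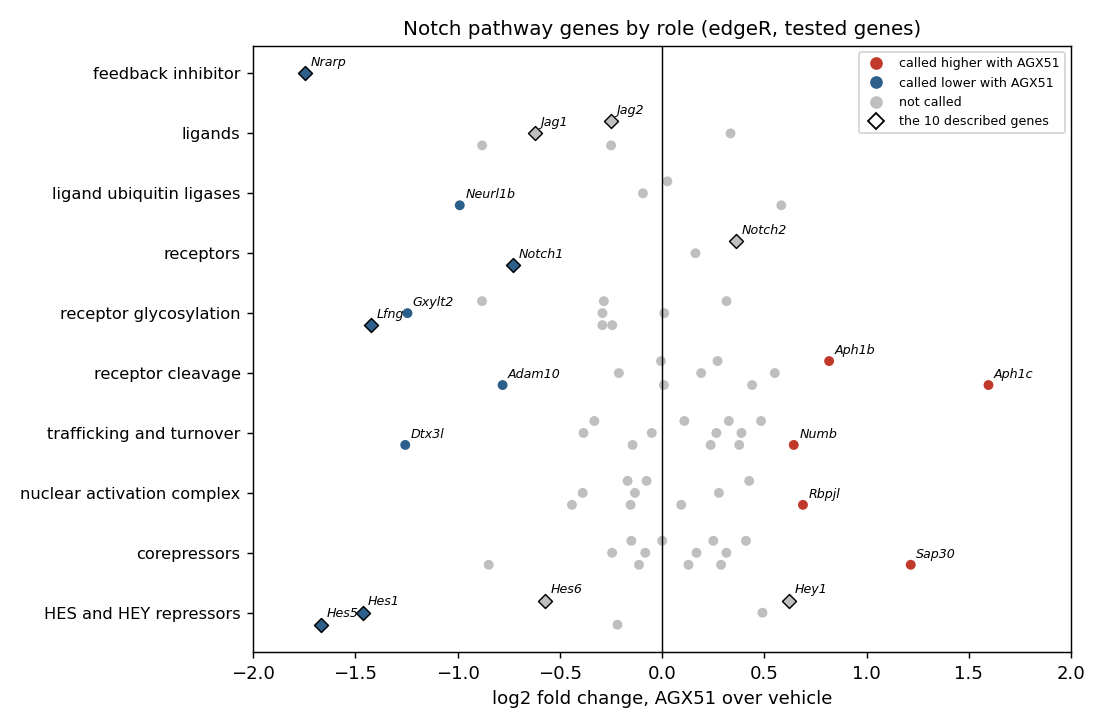
Log2 fold change of AGX51 over vehicle (horizontal axis, edgeR) for tested Notch pathway genes, 1 point a gene, in rows by role and spread vertically within a row only to separate points. Blue points were called lower, red higher and grey not called, and outlined diamonds are the 10 genes described. Calls outside the 10 genes were few and are spread over several rows, with both directions in the cleavage and trafficking rows. Of 64 tested genes outside the 10, 5 were called higher and 4 lower, against 8.57% and 9.93% of all tested genes.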

How the data were processed

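The authors made raw counts per gene with the RNAsik pipeline, and deposited them with CPM values, which equal count over library total within 0.0005. Per the submitters' processing notes the tools were STAR, featureCounts, Salmon, limma and edgeR, with the build GRCm38. Versions, the rule for listing genes and the use of strand are not given in the sources used here. Libraries were made by poly(A) priming, template switching and tagmentation. The deposited log2 fold changes, mean log2 expression, FDR and p-value columns hold the authors' limma-voom comparison and were not used.

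Counts were tested with edgeR 4.0.16 (R 4.3.3) using TMM, filterByExpr (minimum count 10, minimum total 15), the quasi-likelihood F-test and Benjamini-Hochberg adjustment over 14428 genes. The test was checked on simulated counts. Replicates of a group varied more than counting alone allows, with a chi-square of 5.75 to 17.8 for each degree of freedom. Libraries of 1 number share a letter in the labels, which was taken to mark the same culture. Deviations from the group means correlated at 0.108 to 0.415 within a culture and at -0.261 to 0.0799 between cultures, so blocked values stand beside the calls they change. Alternatives were other scalings and filters, DESeq2 1.42.0, limma-voom (limma 3.58.1), culture as a block, no fold rule, equal depth (4303318 counts), the fibroblast covariate, and libraries left out. The sign-flip test over culture pairs was added after the data were seen. Ratios between genes used counts with 0.5 added. Intervals and floors cover counting error only. Of the listed gene IDs, 17151 matched GENCODE M21, which gave coordinates. Sequences are from RefSeq. Protein features were not analysed here.

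All 10 genes are named. Of the other pathway genes, those named are every called gene, up to 4 of each role by smallest adjusted p, and every receptor, ligand, HES or HEY gene. The genes, lists and alternatives were chosen with earlier results of these data known.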

Additional observations from a re-analysis of the deposited data

Results flagged for a closer look

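Of 80 groups of 4 libraries checked among the named genes, 4 held 1 library far from the others by Dixon's criterion, and chance gives about 1 in 20. *Hes5* was at 5.67 CPM in vehicle replicate 3, against 2.82 to 3.24 CPM in the other vehicle libraries. *Aph1b* was at 17.9 CPM in AGX51 replicate 4, against 14.0 to 14.2 CPM in the other AGX51 libraries. *Mib1* was at 30.2 CPM in AGX51 replicate 2, against 21.9 to 23.0 CPM, and *Rbpj* was at 71.8 CPM in AGX51 replicate 4, against 57.3 to 58.8 CPM, in the other AGX51 libraries.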

How the results depend on the processing

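The calls of *Hes1*, *Hes5*, *Nrarp*, *Lfng* and *Notch1* kept their direction and threshold under every alternative that tested them. *Jag1* became called lower with upper quartile scaling (-0.68), DESeq2 (-0.61), limma-voom (-0.69) and culture as a replicate block (-0.65), and ran from -0.86 to -0.46 with 1 library left out, called without AGX51 replicate 1. *Hes6* became called lower with upper quartile scaling (-0.63), library totals only (-0.65), the fibroblast covariate (-0.68), equal depth (-0.65) and no fold rule (-0.57), and ran from -0.64 to -0.47 with 1 library left out, called without AGX51 replicate 3 or 4 or vehicle replicate 1. *Hey1* became called higher, making 1 of the 10 genes higher, at a minimum count of 30 (0.63), with culture as a replicate block (0.61) and with the fibroblast covariate (0.76). It ran from 0.52 to 0.79 with 1 library left out, called without AGX51 replicate 4 or vehicle replicate 3, so that the number of the 10 genes called higher ran from 0 to 1. Apart from *Jag1*, *Hey1* and *Dll3*, pairing libraries by culture changed no call among the named genes. The 5 other pathway genes called higher were 3 with library totals only, 9 with no fold rule and 3 to 5 with 1 library left out (3 without AGX51 replicate 3 or vehicle replicate 1). Signs turned only among genes that were not called. *Jag2* was at 0.23 at equal depth, *Dlk1* at -0.11 and *Hes7* at 0.57 with the fibroblast covariate, *Mib1* at -0.0274 with upper quartile scaling and -0.0467 with library totals only, *Neurl1a* at 0.0924 with the covariate and 0.00831 at equal depth, and *Notch3* at -0.19 with limma-voom, -0.39 with the covariate and -0.51 without both libraries of culture 4. With 1 library left out, *Hes7* ran from -0.81 to 0.22, *Mib1* from -0.0321 to 0.11, *Neurl1a* from -0.28 to 0.0791 and *Notch3* from -0.40 to 0.48. The cause of these changes was not tested. Depth limits *Hes5*, *Lfng* and *Heyl*, whose AGX51 libraries held 13 counts or fewer each.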
